A study of Mus musculus with 9 samples.

Results

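The inducible NF-kappaB regulators Nfkbiz and Tnfaip3 and the toll-like receptor induced effector genes Lcn2 and Acod1 were examined in RAW264.7, a line of mouse cells with macrophage properties. They are 4 of the 311 genes in the deposited count table and were picked by gene symbol. In GENCODE M21 (GRCm38), Nfkbiz (ENSMUSG00000035356) lies at chr16:55811375-55838899 and Tnfaip3 (ENSMUSG00000019850) at chr10:19000910-19015657, both on the minus strand. Lcn2 (ENSMUSG00000026822) lies at chr2:32384633-32388252 on the minus strand and Acod1 (ENSMUSG00000022126) at chr14:103046977-103056573 on the plus strand. The study asked how the microRNA let-7c-5p affects macrophage polarization. One group of 5 libraries came from cells transfected with let-7c-5p mimics, which are synthetic copies of the microRNA, and the other 4 libraries came from a group labelled as negative control. Both groups are the same cell line grown in the same serum-containing medium, and the labels give no genotype change, dose, time or inflammatory stimulus and do not say what the negative control was transfected with. Replicates are called biological in the labels, with nothing said of separate cultures, so the p-values measure only the spread between these libraries.

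NF-kappaB is a transcription factor that is held in the cytoplasm by inhibitors and enters the nucleus when toll-like receptors or cytokine receptors are engaged. Among the first genes it switches on in macrophages are its own regulators. Nfkbiz encodes IkappaB-zeta, a nuclear protein that joins NF-kappaB at a second set of promoters and is needed there for their induction. Tnfaip3 encodes A20, a ubiquitin-editing enzyme that shuts the signal down. Lcn2 encodes lipocalin 2, which binds bacterial siderophores and so withholds iron, and in mouse macrophages it is one of the genes that need IkappaB-zeta. Acod1 encodes the mitochondrial enzyme that makes itaconate from cis-aconitate, a metabolite that restrains inflammation and inhibits bacterial growth, and it is induced by both toll-like receptors and interferons.

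The sequences that matter here are the microRNA that was added and the places in the members where it or NF-kappaB could bind. Mature mouse let-7c-5p is given first, from RefSeq (GRCm38.p6), with its seed, bases 2 to 8, in capitals. It is made from 2 loci, chr16:77599672-77599693 and chr15:85706616-85706637, both on the plus strand. The mature microRNA table holds 11 names with this same seed. The second sequence is the only match to that seed among the 3′ untranslated regions of the members, in Tnfaip3 at chr10:19001498-19001527 (minus strand, GENCODE M21 transcript, GRCm38), with the 7 bases complementary to the seed in capitals. The third is the stretch just before the more upstream of 2 RefSeq starts of Tnfaip3, chr10:19015411-19015547 (minus strand, GRCm38.p6), bases -137 to -1, with an AP-1 match (TGANTCA) and 2 matches to the kappaB consensus in capitals. The labels do not name the build used by the authors.

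let-7c-5p: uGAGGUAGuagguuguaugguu
Tnfaip3 seed site: atgcttctaagtatcCTACCTCtttgaaga
Tnfaip3 promoter: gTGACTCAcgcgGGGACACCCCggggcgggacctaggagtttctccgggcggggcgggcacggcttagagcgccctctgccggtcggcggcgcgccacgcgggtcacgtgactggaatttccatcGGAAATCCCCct

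The Tnfaip3 seed site starts 1219 bases after the stop codon in a 3′ untranslated region of 1821 bases. It is a match to the 7 seed bases (CTACCTC) without the extra A that would make it an 8-base site. Over the longest 3′ untranslated region of 21045 annotated genes, 9.02% held CTACCTC and 23.4% held its last 6 bases, TACCTC. These regions had a median length of 960 bases and were not matched for length, and a longer region has more room for a match. Tnfaip3 held TACCTC 2 times, once within the printed site. Neither was found in Nfkbiz (1355 bases), Acod1 (1065 bases) or Lcn2 (232 bases), and a missing match says only that these letters are not in that annotated region. The AU-rich pentamer ATTTA, a motif of many unstable messenger RNAs, occurred 5 times in Tnfaip3, 4 times in Nfkbiz and once in Acod1, and was not found in Lcn2. It was present in 65.2% of the 21045 regions. The longer AU motif TATTTAT, present in 27.6% of them, occurred 2 times in Tnfaip3 and 1 time in Acod1, and was not found in Nfkbiz or Lcn2.

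Promoters of 3 of the 4 members were matched in RefSeq, with 2 windows for Tnfaip3 and 1 each for Lcn2 and Acod1. Within the 250 bases before the start, searched on both strands, the kappaB consensus was found in 9.55% of all 32851 promoters and the AP-1 motif TGANTCA in 6.75%. In the upstream Tnfaip3 window, the one printed, the kappaB matches were GGGACACCCC at -125 to -116 and GGAAATCCCC at -12 to -3, and the AP-1 match, TGACTCA, lay at -136 to -130. The other Tnfaip3 window (chr10:19011964-19012213, minus strand) held none of the motifs searched. Lcn2 had 1 kappaB match, GGAGTCCTCC at -43 to -34, which lies inside an exon annotated by GENCODE. A stricter form of the kappaB consensus, found in 3.9% of promoters, matched both Tnfaip3 sites but not the Lcn2 site. The Acod1 window held a TATA motif (TATAAA, in 12.4% of promoters) at -28 to -23 but no kappaB and no AP-1 match. That TATA match lies inside the gene as annotated by GENCODE, downstream of its annotated start. The upstream Tnfaip3 window also held TATAAA, at -225 to -220, outside the printed stretch. None of these 4 windows held the C/EBP motif TTGCNNCAA, which was in 1.74% of promoters. Such matches describe the letters and do not show binding.

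A property of the table sets how the next values can be read. Its 311 genes had all been chosen for a difference between these same groups, since no log2 ratio of mean counts lay between -0.98 and 0.98 (for genes with counts in both groups). Of 149 genes that passed the filter on low counts, edgeR called 72 lower with the mimic (48.3%) and 148 in either direction (99.3%), so a call on a member carries no weight of its own. The split was 72 lower and 76 higher. It was 72 and 30 with column totals as library sizes, and 49 and 77 with those totals less Gm10123, Gm6061 and Rpl17. DESeq2, run on all 311 genes without the filter, gave 141 and 96, a split of a different set of genes. Column totals, 40655 to 50083 in the control and 43241 to 83053 with the mimic, are sums over chosen genes and not sequencing depths, and Gm10123 and Rpl17 together took 29.0% to 35.3% and 47.5% to 71.2% of them. None of 12 macrophage identity genes was in the table, so the label of the line could not be checked against its markers. Of the markers of other cells, 1 of 10 dendritic genes (Itgax, 9 to 18 counts in the control and 24 to 36 with the mimic) and 1 of 10 osteoclast genes (Mmp9, 57 to 78 and 21 to 36) were in the table, with none of 9 fibroblast and none of 9 lymphocyte genes. Their part in the results was not tested.

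Nfkbiz had the largest fall of the 4 genes. Its deposited counts in control replicates 1 to 4 were 968, 1181, 1213 and 1336, and in mimic replicates 1 to 5 they were 262, 300, 237, 351 and 171. The groups were far apart, with the lowest control library 2.76 times the highest mimic library. On the log2 scale it fell by 2.24 ± 0.19 (SE), to 21.1% of the control level relative to the table's remaining genes, and was lower in 5 of 5 mimic libraries (adjusted p = 4.3e-07 by edgeR's quasi-likelihood test). Only 3 tested genes of the table had a lower log2 fold change.

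Tnfaip3, whose product limits the same pathway, fell less. Its counts were 500, 676, 708 and 785 in the control libraries and 337, 313, 310, 410 and 232 in the mimic libraries. The groups did not overlap, but the gap was narrow, with the lowest control library 1.22 times the highest mimic library. The log2 fold change was -1.13 ± 0.17 (SE, adjusted p = 9.5e-05 by the same edgeR test), or 45.6% of the control, and it stood at position 51 of the 72 lower genes in order of fold. The value was -0.70 when library sizes were column totals less Gm10123, Gm6061 and Rpl17. The member with the let-7 seed site was thus the one with the smallest fall, though it was not told apart from Acod1 in the ratio of the pair given further on.

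Lcn2 fell nearly as far as Nfkbiz, and its counts varied most with the mimic through 1 library. The control libraries held 292, 426, 265.0 and 342 counts and the mimic libraries 66, 81, 79, 196 and 48. Mimic replicate 4 stood apart at 196 counts, though it was still below each control library. The log2 fold change was -1.96 ± 0.30 (SE, adjusted p = 1.1e-04, edgeR), or 25.8% of the control, and -2.28 without mimic replicate 4. The coefficient of variation of the counts was 62.3% with the mimic and 21.4% in the control, and 22.2% with the mimic when replicate 4 was left out.

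Acod1 had the highest counts of the 4 genes in each library. They were 1618, 1688, 1687 and 1951 in the control and 696, 629, 674, 859 and 1005 with the mimic. The groups did not overlap, and mimic replicate 5, the highest of its group, came nearest to the control. The log2 fold change was -1.22 ± 0.23 (SE, adjusted p = 5.1e-04, edgeR), or 42.8% of the control. It was -1.62 with column totals as library sizes and -0.82 with those totals less Gm10123, Gm6061 and Rpl17. In bulk RNA, less message per cell and fewer cells with the message cannot be told apart, for this gene as for the others.

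**Figure D1:**
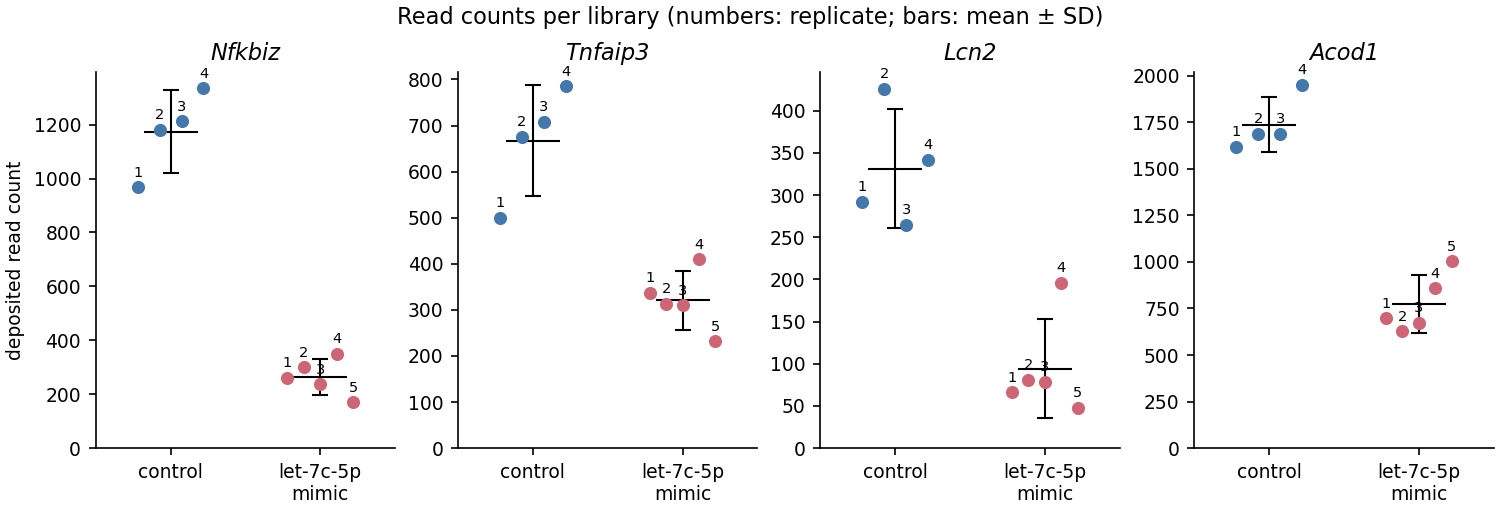
Deposited read counts (vertical axis, from 0) of Nfkbiz, Tnfaip3, Lcn2 and Acod1 in each control and let-7c-5p mimic library. Points are libraries numbered by replicate and bars are mean ± SD (n = 4 and n = 5), and in each gene the 5 mimic libraries lie below the 4 control libraries.

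In the deposited counts all 4 members were lower without overlap between the groups. Among the 149 tested genes 25.5% were lower without overlap, in a table chosen for such differences. The members did not sit together in the order of fold changes. Nfkbiz and Lcn2 were at positions 4 and 7 of the 72 lower genes, and Acod1 and Tnfaip3 were at positions 30 and 51. Over the 4 genes the log2 fold changes had a median of -1.59, against 0.93 over all tested genes. The latter lies at the edge of the empty gap around 0, and it was -0.74 without mimic replicate 3 and 0.03 without mimic replicate 4.

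**Figure D2:**
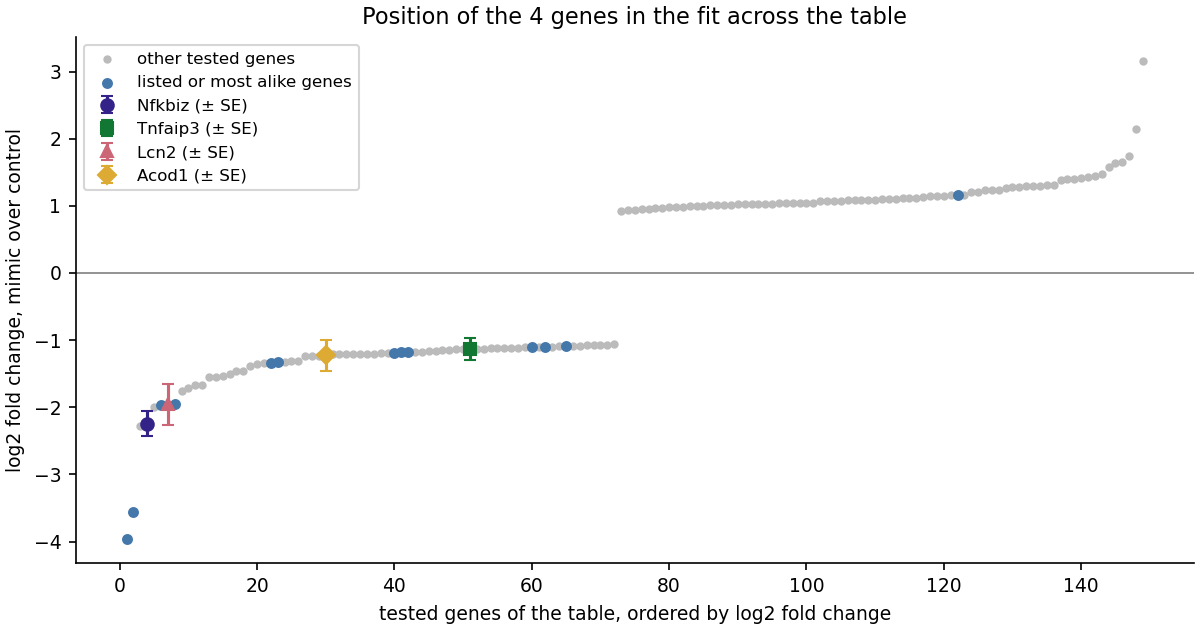
Log2 fold change of mimic over control (vertical axis) for the 149 tested genes in rank order (horizontal axis). The 4 members are drawn with ± SE, other listed or most alike genes in blue, and the gap around 0 shows that the table was chosen for differences.

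Levels were compared between the genes as TMM-scaled counts per kilobase of the longest protein-coding transcript. In the control the order was Acod1 (684 ± 105, SD, n = 4), Lcn2 (378 ± 112), Nfkbiz (293 ± 32.5) and Tnfaip3 (154 ± 15.4). The libraries of Lcn2 (283 to 517) and Nfkbiz (246 to 319) overlapped. Acod1 (563 to 811) lay above Lcn2, and Tnfaip3 (134 to 170) lay below Nfkbiz, without overlap. With the mimic Acod1 stayed highest (293 ± 90.6, SD, n = 5), and Lcn2 (96.7 ± 48.9), Tnfaip3 (70.0 ± 6.30) and Nfkbiz (61.7 ± 9.69) overlapped one another. Nfkbiz messages per kilobase thus exceeded those of Tnfaip3 in the control, with no overlap, and lay at about the level of Tnfaip3 with the mimic. Counted over all annotated exons, which for Lcn2 include retained introns, Lcn2 in the control (132 ± 39.1) lay below Nfkbiz (240.0 ± 26.7).

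Ratios of 2 members within 1 library need no library scaling, so they show whether the members moved by the same amount. In the control libraries Tnfaip3 had 0.517, 0.572, 0.584 and 0.588 counts per Nfkbiz count. In mimic replicates 1 to 5 it had 1.29, 1.04, 1.31, 1.17 and 1.36. The inhibitor therefore went from fewer counts than Nfkbiz in each control library to more in each mimic library. The log2 ratio rose by 1.12 ± 0.08 (SE; exact permutation test, two-sided, p = 0.016, adjusted p = 0.048 over 6 pairs). This p of 0.016 is the smallest that 4 against 5 libraries can give, and the ratio of Acod1 to Nfkbiz, given next, has the same p. The adjusted p is under 0.05 only because 2 pairs share that smallest p. Both pairs hold Nfkbiz, so they are not separate results. The adjusted p is over 0.05 in 8 of the 9 sets that leave out 1 library. With fewer libraries the smallest possible p is larger, so that count cannot show whether the rise rests on 1 library. The rise itself ran from 1.08 to 1.18 in these sets.

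Acod1 also fell less than Nfkbiz. Its counts per Nfkbiz count were 1.67, 1.43, 1.39 and 1.46 in the control and 2.66, 2.10, 2.84, 2.45 and 5.88 with the mimic. The groups did not overlap, and mimic replicate 5 was far above the rest. The log2 ratio rose by 0.99 ± 0.26 (SE; exact permutation test, p = 0.016, adjusted p = 0.048), and by 0.75 without mimic replicate 5 (exact permutation test, adjusted p = 0.057). With all libraries the adjusted p is under 0.05 only together with that of Tnfaip3 to Nfkbiz, as said above. Here too the adjusted p is over 0.05 in 8 of the 9 sets that leave out 1 library, with the same limit on what that count can show. The rise ran from 0.75 to 1.12 in these sets.

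Lcn2 kept close to Nfkbiz. It had 0.302, 0.361, 0.218 and 0.256 counts per Nfkbiz count in the control and 0.252, 0.270, 0.333, 0.558 and 0.281 with the mimic. These ranges overlapped, and the log2 ratio differed by 0.22 ± 0.26 (SE; exact permutation test, p = 0.52, adjusted p = 0.62). Leaving out 1 library at a time, the difference ran from 0.02 without mimic replicate 4 to 0.34 without control replicate 2. A difference that misses the threshold does not show equal falls.

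Among the other pairs, the log2 ratio of Lcn2 to Tnfaip3 changed by -0.90 ± 0.29 (SE; exact permutation test, adjusted p = 0.095) and passed the threshold only when mimic replicate 4 was left out (-1.11, adjusted p = 0.043). That of Acod1 to Lcn2 changed by 0.78 ± 0.39 (exact permutation test, adjusted p = 0.14), by 1.04 without mimic replicate 4 (adjusted p = 0.043) and by 0.48 without mimic replicate 5 (adjusted p = 0.21). Acod1 and Tnfaip3 differed by -0.12 ± 0.23 (exact permutation test, adjusted p = 0.62) in how far they moved, by -0.34 without mimic replicate 5 (adjusted p = 0.057) and by -0.03 without control replicate 1 (adjusted p = 0.79). Without mimic replicate 4 the ratios of Tnfaip3 and of Acod1 to Nfkbiz had the same adjusted p as the pairs that passed here. The calls in that set thus depend on one another. By size alone the members formed a pair with the larger fall, Nfkbiz and Lcn2, and a pair with the smaller fall, Tnfaip3 and Acod1.

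**Figure D3:**
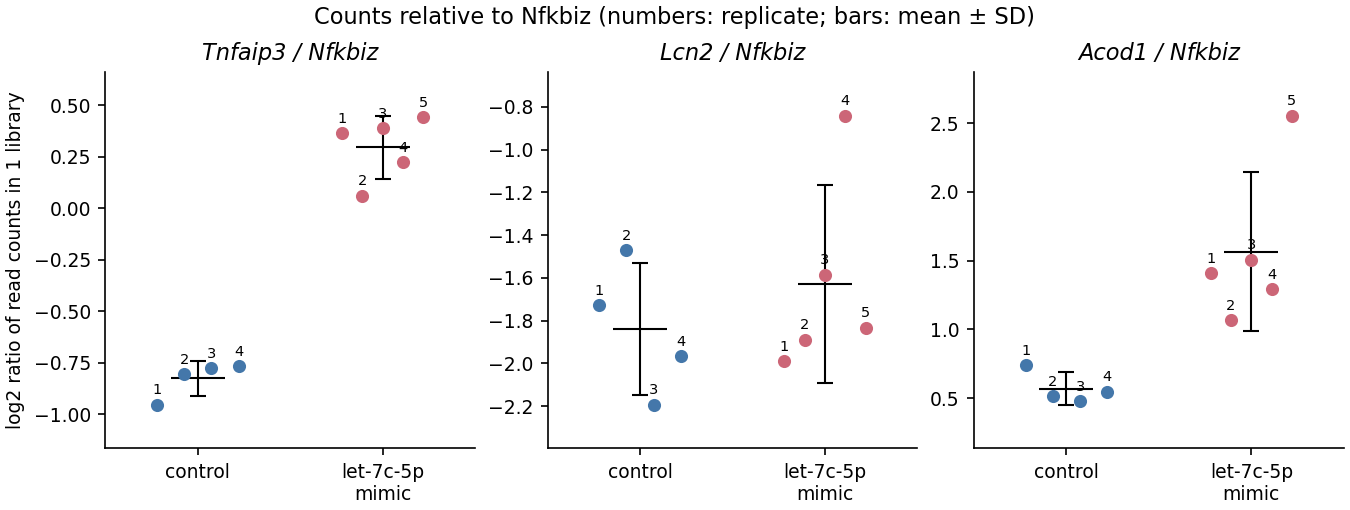
Log2 ratio of the counts of Tnfaip3, Lcn2 and Acod1 to those of Nfkbiz in the same library (vertical axis) for control and mimic libraries. Points are libraries numbered by replicate and bars are mean ± SD; the groups are apart for Tnfaip3 and Acod1 and overlap for Lcn2.

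With 4 and 5 libraries a group no correlation was computed, and the effectors are related to Nfkbiz by the order of the libraries. With the mimic, replicate 4 had the most and replicate 5 the fewest counts of Nfkbiz, Tnfaip3 and Lcn2, and this held for deposited and for TMM-scaled counts. In deposited counts the order for Nfkbiz was replicates 4, 2, 1, 3 and 5, and for Lcn2 it was 4, 2, 3, 1 and 5. Acod1 did not follow them: replicate 5, the lowest in the other members, was its highest library, with 1184 scaled counts against 608 to 726 in the others. On the log2 scale of scaled counts, replicate 5 deviated from the group mean by 0.67 for Acod1, -0.32 for Nfkbiz, -0.18 for Tnfaip3 and -0.52 for Lcn2. Replicate 4 lay 1.02 above the mean for Lcn2, 0.24 for Nfkbiz and 0.17 for Tnfaip3.

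In the control the deposited counts of Nfkbiz and Tnfaip3 had one order, replicate 4 highest, then 3, 2 and 1. After scaling, replicate 4 was the lowest control library in each of the 4 genes, so that order depends on the scaling. The deposited counts of Lcn2 did not follow those of Nfkbiz, with replicate 2 highest and replicate 3 lowest. In scaled counts both genes had the order 2, 1, 3 and 4. Both were divided by the same scaling factors, 0.76 in control replicate 1 and 1.32 in control replicate 4, so this shared order depends on the scaling too. The ratio of Tnfaip3 to Nfkbiz, which scaling does not touch, varied little in the control, with an SD of 0.09 on the log2 scale, against 0.31 for Lcn2 to Nfkbiz and 0.12 for Acod1 to Nfkbiz. With the mimic these SDs were 0.15, 0.46 and 0.58. Single libraries carried much of them: without mimic replicate 4 the SD for Lcn2 was 0.17, and without mimic replicate 5 that for Acod1 was 0.19. In the control, leaving out replicate 1 gave SDs of 0.020 for Tnfaip3 and 0.035 for Acod1.

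**Figure D4:**
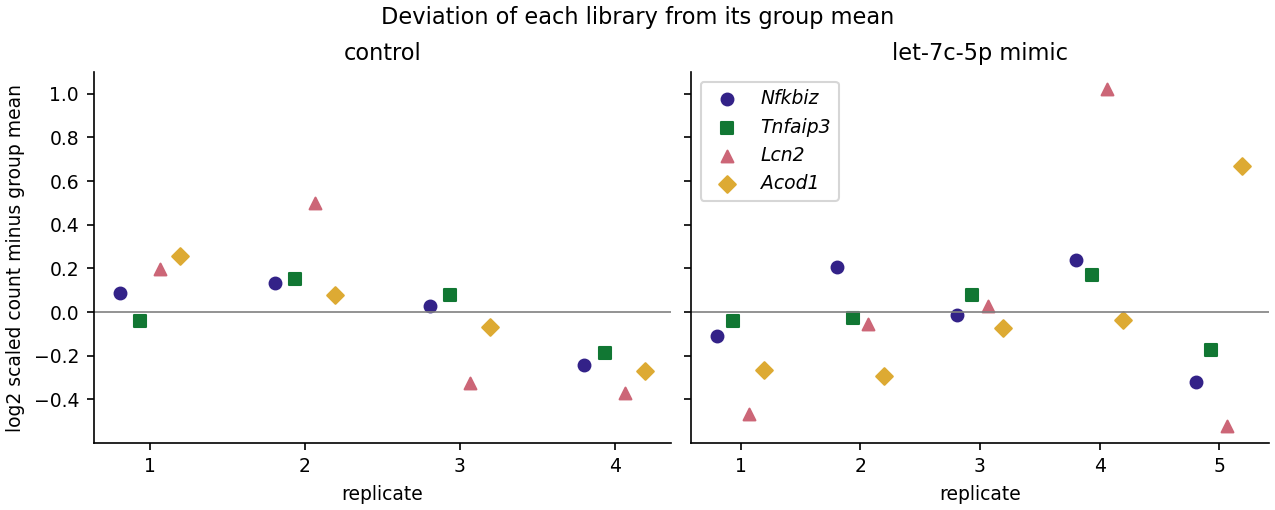
Deviation of each library from its group mean in log2 TMM-scaled counts (vertical axis) by replicate (horizontal axis) for the 4 members, control at left and mimic at right. In mimic replicate 5 Acod1 is above the mean while the other members are below it, and in mimic replicate 4 Lcn2 is 1.02 above it.

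The genes with the most similar pattern were taken as those with the smallest root mean square difference in log2 scaled counts, centred on the control mean, over the 9 libraries. The search covered genes averaging 50 counts or more (47 candidates per member). For Nfkbiz these were Ptgs2, the inducible cyclooxygenase (0.34), Lcn2 (0.39) and Il23a, a subunit of interleukin 23 (0.51). For Lcn2 they were Nfkbiz (0.39), Ptgs2 (0.40) and Il23a (0.43). Tnfaip3 was nearest to Zc3h12c, a zinc finger gene of the Zc3h12 family (0.17), the pro-apoptotic gene Pmaip1 (0.24) and the transcription factor gene Pou2f2 (0.24). Acod1 was nearest to the cytokine gene Tnf (0.19), the immediate early gene Egr1 (0.20) and Amotl2, of the angiomotin family (0.31). The measure mostly reflects a like fold change, and these genes share libraries and scaling.

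Ptgs2, the nearest to Nfkbiz, had 698, 1040, 1018 and 1274 counts in the control and 255, 222, 219, 409 and 249 with the mimic, a log2 fold change of -1.95 ± 0.20. In deposited counts mimic replicate 4 was highest in Ptgs2 too, and replicate 5 was near the middle. In scaled counts replicate 5 came next below replicate 4 in Ptgs2 (293 and 346), while it was the lowest mimic library in Nfkbiz (201). Zc3h12c, the nearest to Tnfaip3, had 337 to 587 counts in the control and 164 to 283 with the mimic (log2 fold change -1.18 ± 0.17). Egr1, near Acod1, had its highest mimic library in replicate 5, with 1048 counts against 759 to 819 in the others. Tnf, nearest to Acod1, had 8094 to 10417 counts in the control and 3413 to 4313 with the mimic, with replicate 4 highest. In scaled counts, on which the likeness was computed, Tnf was highest in mimic replicate 5 (4357 against 3646 in replicate 4), as Acod1 was.

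Most genes of the surrounding pathway were outside the table and so not analysed here. Among 15 NF-kappaB subunits and IkappaB proteins only Nfkbiz was in it, and of 18 genes for A20, its partners and related deubiquitinases only Tnfaip3. None of 27 listed toll-like receptors and adaptors and none of 10 listed decay regulators of inflammatory messenger RNAs was present. The decay list holds Zc3h12a but not Zc3h12c of the same family, which is in the table (log2 fold change -1.18 ± 0.17). Acod1 was the only one of 17 itaconate and Nrf2 response genes, and Lcn2 the only one of 14 siderophore and iron handling genes. Of 30 published let-7 targets only Myc was in the table, with 69 to 109 counts in the control and 32 to 48 with the mimic (log2 fold change -1.09 ± 0.25).

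Genes known to need IkappaB-zeta in mouse macrophages were a list of 8, of which 3 were in the table, Lcn2, Csf3 and Csf2. Csf3, the granulocyte colony-stimulating factor, had 53, 19, 20 and 24 counts in the control and 1, 1, 5, 4 and 2 with the mimic. It changed by -3.56 ± 0.54 (SE) on the log2 scale. It passed the filter only through the control libraries, where it is high, so this change carries no weight of its own. Csf2, the granulocyte-macrophage factor, had 8, 6, 3 and 4 counts in the control and 0 in each mimic library and was below the filter. The 2 tested genes of the list, Lcn2 and Csf3, were lower, with a median log2 fold change of -2.76, beside 48.3% of all tested genes called lower. The limit on Csf3 holds for this median too. Mimic replicate 4, the highest in Nfkbiz and Lcn2, was not the highest in Csf3.

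Of 20 early toll-like receptor induced genes 7 were in the table, Nfkbiz and Tnfaip3 among them, and the 6 tested all fell (median log2 fold change -1.64), beside 48.3% of all tested genes called lower. The largest fall was that of Cxcl2, a neutrophil chemokine, with 2224 to 3322 counts in the control and 137, 163, 155, 455 and 75 with the mimic. Cxcl2 thus had its highest mimic library in replicate 4 and its lowest in replicate 5, as Nfkbiz and Lcn2 did. Il1b, the untested one, had 6 to 23 counts in the control and 3 to 7 with the mimic, which overlap. Of 18 late genes 6 were in the table, and the 4 tested, Lcn2, Acod1, Il23a and Csf3, all fell (median -1.97), beside the same 48.3%. Of these 4, Csf3 passed the filter only through the control libraries. The lists share members with each other, and they were drawn up with earlier results of these data known.

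Ifnb1, the interferon beta gene, was the exception among the late genes. It had 0, 0, 0 and 1 counts in the control and 2, 3, 4, 2 and 6 with the mimic, below the filter and untested. Its highest library was mimic replicate 5. Acod1, an interferon-inducible gene, was also highest there among the mimic libraries, but below each control library. The Ifnb1 counts are very few, and a link between the 2 genes was not tested. Of 17 interferon response genes Ifnb1 was the only one in the table, so the wider response could not be set beside Acod1.

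**Figure D5:**
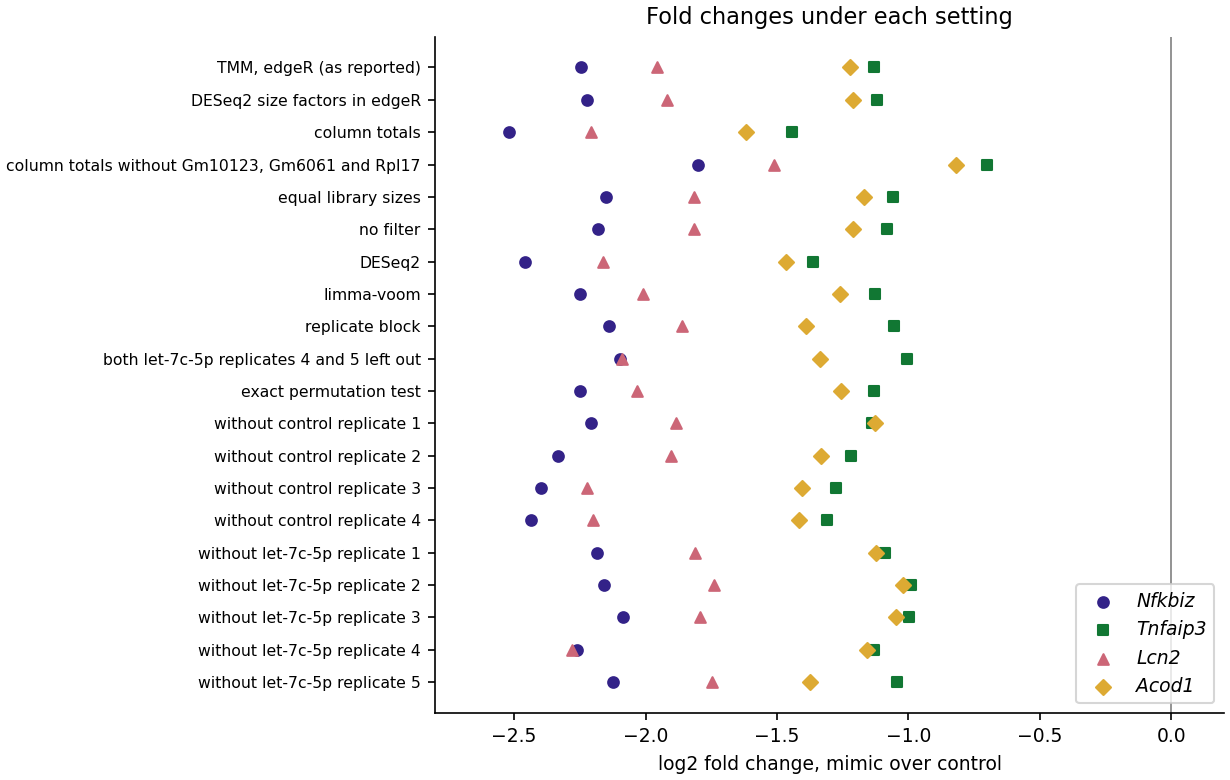
Log2 fold change of mimic over control (horizontal axis) of the 4 members under the reported fit and each alternative setting (vertical axis). All values lie below 0, from -2.52 for Nfkbiz with column totals to -0.70 for Tnfaip3 with column totals less Gm10123, Gm6061 and Rpl17.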

How the data were processed

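Total RNA of 9 RAW264.7 libraries was sequenced. The deposited table holds raw read counts per gene, made by the authors with FastQC 0.11.9, HISAT2 2.1.0, HTSeq 0.11.2, R 4.3.2 and DESeq2 1.4.2, per the submitters' processing notes. The genome build, annotation, strand setting and rule for choosing the 311 genes are not stated there, and depth is unknown. No exon of another gene in GENCODE M21 lay within the 4 members.

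From the counts, edgeR 4.0.16 in R 4.3.3 was run over the whole table (TMM scaling, filterByExpr with a minimum count of 10, quasi-likelihood test on group alone, Benjamini-Hochberg adjustment, threshold 0.05). Standard errors are the absolute fold change over the root of F. Log2 ratios of members used a pseudocount of 0.5 and exact two-sided permutation tests. The edgeR code was checked on simulated data in which changed genes were a minority, as TMM scaling assumes, and the permutation code on random values. Changed genes are not a minority in this table, so the check does not cover the scaling of the fold changes given here. Alternatives were other scalings, no filter, DESeq2 1.42.0, limma 3.58.1 (voom), permutation, a replicate block and leaving out libraries. Named genes are the members, the 3 most similar genes of each and listed genes in the table. Members and lists were chosen with earlier results of these data known. The kappaB consensus and its stricter form allow a purine or pyrimidine choice at some positions, so they are given by name. Replicates of a group all differed beyond sampling noise, with a chi-square over its degrees of freedom of 3.29 to 121.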

Additional observations from a re-analysis of the deposited data

Results flagged for a closer look

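Of 28 sets of libraries looked at (4 members as deposited and as scaled counts and 6 ratios, in each group), 8 had 1 library far from the others of its group, where chance alone gives about 1 in 20; the sets share counts and are not independent. In mimic replicate 4, Lcn2 had 196 deposited counts against 48 to 81 in the other mimic libraries, or 166 scaled counts against 56.5 to 83.0. The same library had 0.558 Lcn2 counts per Nfkbiz count (0.252 to 0.333 in the others) and 0.478 per Tnfaip3 count (0.196 to 0.259). In mimic replicate 5, Acod1 had 1184 scaled counts against 608 to 726, with 5.88 counts per Nfkbiz count (2.10 to 2.84) and 4.33 per Tnfaip3 count (2.01 to 2.17). In control replicate 1 there were 3.24 Acod1 counts per Tnfaip3 count against 2.38 to 2.50 in the other control libraries.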

How the results depend on the processing

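Under each of 19 alternatives the 4 members kept a negative log2 fold change and their call (highest adjusted p 0.022, with an exact permutation test), in a table chosen for differences between these libraries. Leaving out each library gave -2.43 to -2.09 (Nfkbiz), -1.31 to -0.99 (Tnfaip3), -2.28 to -1.74 (Lcn2) and -1.42 to -1.02 (Acod1). Column totals shifted the median of the tested genes by -0.39 and column totals without Gm10123, Gm6061 and Rpl17 by 0.42, and the members moved with it. Over 4 other scalings the log2 fold changes ran from -2.52 to -1.80 (Nfkbiz), -1.44 to -0.70 (Tnfaip3), -2.21 to -1.51 (Lcn2) and -1.62 to -0.82 (Acod1). Against 148 genes called in the table, no filter gave 311 and DESeq2, also run without the filter, gave 237, and leaving out each library gave 131 to 164.

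The rise of Tnfaip3 over Nfkbiz was 1.15 with medians, 1.095 without mimic replicates 4 and 5 (an alternative chosen after seeing the data), and that of Acod1 over Nfkbiz 0.88 and 0.76, all with an adjusted p over 0.05. Leaving out each library gave 1.08 to 1.18 and 0.75 to 1.12, -1.115 to -0.79 for Lcn2 over Tnfaip3 and 0.48 to 1.04 for Acod1 over Lcn2. With fewer libraries the smallest p an exact test can give is larger. As a replicate block, same-numbered libraries gave 1.08 and 0.75, where the smallest possible p is 0.125; same-numbered libraries did not deviate together (correlations -0.21 to 0.04 across genes), and the block left the calls of the members as they were, with 140 genes called in the table. Counts under about 10 limit Csf2, Csf3, Il1b and Ifnb1.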
